A study of Mus musculus with 124 samples.

Results

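The mRNA levels of 5 genes that make, sense, move or remove adenosine were followed in the cerebral cortex and liver of the same mice after sleep deprivation. They were chosen by name: Adora1 and Adora2a, which encode an inhibitory (A1) and a stimulatory adenosine receptor; Nt5e, which encodes the ectonucleotidase CD73; Adk, which encodes adenosine kinase; and Slc29a1, which encodes the equilibrative nucleoside transporter ENT1. All 5 had a row in both tables, among 17108 named genes in cortex and 13338 in liver. Adenosine is a purine nucleoside that builds up outside cells when energy use is high, and in the brain its extracellular level is known to rise with time awake. The A1 receptor couples to inhibitory G proteins and lowers cyclic AMP, while the product of Adora2a couples to stimulatory G proteins, and caffeine blocks both. CD73 makes adenosine from AMP outside cells, ENT1 carries it across the membrane in either direction, and adenosine kinase turns it back into AMP inside cells, in the brain mostly in astrocytes.

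RNA sequencing gave 1 library per mouse and tissue from 62 mice, fed freely under 12 h of light and 12 h of darkness and deprived at 11-12 weeks of age. Sleep deprivation (SD) lasted 6 h and began when the lights came on; the mice were kept awake by gentle handling between T24 and T30, in hours counted from the start of a baseline day. SD mice were sampled in groups of 3 at 12 times. These were T27, after 3 h of deprivation, T30, at its end, and then every 6 h of recovery between T36 and T78, with a last pair at T192 and T198. Control mice (NSD), left to sleep, were sampled by zeitgeber time (ZT, counted in hours after light onset) at 0 (n = 8), 3 (n = 3), 6 (n = 5), 12 (n = 5) and 18 (n = 5), and each SD group was set against the NSD group of the same ZT. The ZT0 group pools mice labelled T0 and T24. The labels give neither strain nor sex, and they mark the cortex libraries as a re-analysis of earlier ones. Values are log2 CPM, each gene's reads relative to all reads of its library. Each library summed to 979200 to 1020000 CPM in cortex and to 919700 to 1070000 CPM in liver, and the reads behind a value are unknown. A gene is said to have risen or fallen, or to be called, where limma's test gave a Benjamini-Hochberg adjusted p under 0.05 over all genes of the tissue. Whether 2 groups overlap is description only. Groups of 3 mice can separate by chance, and the share of all genes that did so was not counted. A change is SD minus NSD in log2 after a term for the 2 label batches, ± its standard error (SE), and can therefore differ from the difference of the group means, given ± SD. Each SD group lay within 1 label batch, while all NSD groups but that of ZT3 held mice of both. The p-values in liver are too small, since the deposited liver values had been adjusted for a factor of 3 levels that the labels do not give. In whole tissue, fewer cells of a type and less RNA per cell cannot be told apart.

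On mouse build GRCm38, Adora1 lies on the minus strand of chromosome 1 (134199223 to 134235431), Adora2a on the plus strand of chromosome 10 (75316877 to 75334784) and Nt5e on the plus strand of chromosome 9 (88327197 to 88372092). Adk lies on the plus strand of chromosome 14 (21052574 to 21448569) and Slc29a1 on the minus strand of chromosome 17 (45585200 to 45599606). All 5 are protein coding in GENCODE M21. In that annotation Adora1 overlaps Mybph, and Slc29a1 overlaps the antisense gene Gm17080, both on the opposite strand, while Adk overlaps Gm26372, a misc_RNA on the same strand. None of these 3 is listed in either table, and the sources used here do not say whether counting used strand. The RefSeq promoter table (GRCm38.p6, from 250 bases before to 50 after each start) holds 13 windows for 4 of the 5 genes and none for Adora2a. The windows were searched on both strands for the E-box CACGTG, the D-boxes TTATGTAA and TTACGTAA, and the cyclic AMP response element TGACGTCA. Of all 32851 promoter windows in the table, 7.15% held the E-box, 1.06% a D-box and 1.79% the response element. Only 1 of the 13 held any of them, a window of Slc29a1 with an E-box at base 176, in capitals. That window is printed below with 1 of Adora1, which changed in both tissues after deprivation, and the window of Nt5e, which had the widest swing by time of day. No match says only that these letters are not in these windows.
Adora1, chr1:134235408-134235707, minus strand: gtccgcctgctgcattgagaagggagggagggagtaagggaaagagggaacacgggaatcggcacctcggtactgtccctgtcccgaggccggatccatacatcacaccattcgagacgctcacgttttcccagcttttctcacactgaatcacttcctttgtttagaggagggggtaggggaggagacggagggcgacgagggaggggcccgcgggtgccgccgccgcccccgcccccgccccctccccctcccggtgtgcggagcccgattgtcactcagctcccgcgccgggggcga
Nt5e, chr9:88327359-88327658, plus strand: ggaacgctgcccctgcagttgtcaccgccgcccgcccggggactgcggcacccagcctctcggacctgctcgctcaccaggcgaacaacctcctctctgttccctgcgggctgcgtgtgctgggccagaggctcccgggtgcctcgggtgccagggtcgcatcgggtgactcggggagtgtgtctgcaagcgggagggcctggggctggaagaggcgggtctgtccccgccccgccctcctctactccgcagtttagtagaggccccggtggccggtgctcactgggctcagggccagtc
Slc29a1, chr17:45595197-45595496, minus strand: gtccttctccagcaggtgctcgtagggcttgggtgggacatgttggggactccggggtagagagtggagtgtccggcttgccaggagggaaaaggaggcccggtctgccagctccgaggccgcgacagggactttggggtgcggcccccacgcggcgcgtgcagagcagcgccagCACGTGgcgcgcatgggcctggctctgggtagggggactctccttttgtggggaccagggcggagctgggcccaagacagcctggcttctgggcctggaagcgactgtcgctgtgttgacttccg

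Levels were first compared between the genes per kilobase of annotated exon, within a tissue, as CPM per kb over all 62 libraries. In cortex the A1 receptor gene was far the highest, with a median of 44.6 CPM per kb (39.9 to 51.5). Adk followed with 5.31 (4.72 to 5.89) and Slc29a1 with 3.23 (2.69 to 4.37) CPM per kb, and the ranges of these 3 genes did not overlap. Adora2a at 0.527 (0.367 to 0.793) and Nt5e at 0.495 (0.309 to 0.631) CPM per kb overlapped at the bottom of the order. Adora2a is known as a gene of striatal medium spiny neurons, and 10 of 11 markers of that cell type were listed in cortex. Whether the cortex samples held striatal tissue was not tested. In liver the order was led by adenosine kinase, with a median of 62 CPM per kb (52.6 to 75), and by the transporter gene Slc29a1 with 51 CPM per kb (34.5 to 73.4), whose ranges overlapped. Adora1 had 3.74 (2.14 to 7.88), Nt5e 0.889 (0.275 to 3.06) and Adora2a 0.394 (0.214 to 0.614) CPM per kb in liver. The liver libraries carried all 10 hepatocyte markers, summing to 102000 to 120000 CPM at ZT6, and the cortex libraries all 8 neuron markers, summing to 12400 to 13100 CPM at ZT6. Adora2a and Nt5e in cortex and Adora2a in liver lay lowest, and their fold changes carry wide intervals. At T30 the SE of the log2 change was 0.17, 0.14 and 0.28 for these in turn. Wide intervals were not confined to them: Nt5e and Adora1 in liver, with higher medians than Adora2a there, had SE of 0.29 and 0.21.

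At the end of deprivation the A1 receptor gene was higher in cortex, and the genes of the transporter and of adenosine kinase were lower. Both falls were lost in some alternative fits, and adenosine itself was not measured. Of the 5 genes, 3 were called at T30 in cortex: Adora1 rose, and Adk and Slc29a1 fell. At that time 32.4% of all cortex genes were called. After 3 h of deprivation none of the 5 was called in cortex, where 16.4% of all genes were, and at T36 none was, against 12.5%.

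Adora1 had 8.03, 8.15 and 8.22 log2 CPM in the 3 SD mice of T30 cortex, against 7.88, 7.88, 7.91, 7.98 and 8.05 log2 CPM in the 5 NSD mice of ZT6. The groups overlapped by 1 library on each side. Means were 8.13 ± 0.09 in SD mice and 7.94 ± 0.08 in NSD mice, and the log2 change was 0.19 ± 0.05, or 1.14-fold higher (adjusted p = 0.00211, limma). At T27 the values were 8.03, 8.13 and 8.17 log2 CPM in SD mice, against 7.97, 7.97 and 8.01 in NSD mice of ZT3. Every SD library lay above every NSD library there, with a change of 0.12 ± 0.05 (adjusted p = 0.125). At T36, 6 h into recovery, all 3 SD libraries stood at 8.10 log2 CPM, above the NSD range of 7.94 to 7.99 at ZT12 (change 0.14 ± 0.05, adjusted p = 0.056). This value missed the threshold. The T36 change was called in 3 of the alternative limma fits (adjusted p = 0.0349 to 0.0494), among them the fit without a batch term. The deposited cortex values carry no variation along the label batch, so the p-value of that fit is too small. The T36 change was not called with controls of the same label batch (adjusted p = 0.103), without a mean trend (0.0685) or with any single library left out (0.0636 to 0.148). The 8 neuron markers summed to 12100 to 12700 CPM in SD mice and 12400 to 13100 CPM in NSD mice at T30, with 2 called down (Syt1 and Stmn2) and none up. With NSD mice of the same label batch alone the Adora1 change at T30 was 0.20 (adjusted p = 0.00535). From T42 on, the Adora1 changes in cortex ran from −0.11 to 0.09.

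Slc29a1, the transporter gene, had 3.43, 3.50 and 3.58 log2 CPM in SD mice at T30 in cortex, against 3.66, 3.72, 3.74, 3.78 and 3.92 log2 CPM in NSD mice of ZT6. All SD values lay below all NSD values, and the change was −0.26 ± 0.08, a level 0.837 times that of NSD mice (adjusted p = 0.00975, limma). It also lay below every NSD library at T27, with 3.47, 3.63 and 3.64 log2 CPM in SD mice and 3.65, 3.70 and 3.80 in NSD mice, and at T36, with 3.52, 3.57 and 3.60 in SD mice and 3.68 to 3.81 in NSD mice. Those changes, −0.13 ± 0.09 (adjusted p = 0.321) and −0.20 ± 0.08 (adjusted p = 0.0913), were not called. The T30 call did not hold when only controls of the same label batch were used (change −0.20, adjusted p = 0.0712) or without SD library T30S1 (change −0.22, adjusted p = 0.0631). Slc29a1 is known in the brain from neurons, glia and blood vessels. The 7 endothelial markers summed to 254 to 267 CPM in SD mice and 263 to 289 CPM in NSD mice at T30, where 1 of the 7, Slco1a4, fell (−0.43). The part of endothelial cells in the Slc29a1 change was not tested.

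Adk had 5.33, 5.42 and 5.42 log2 CPM in SD mice at T30 in cortex, against 5.42, 5.51, 5.53, 5.62 and 5.64 log2 CPM in NSD mice of ZT6. The SD libraries lay at or below the lowest NSD library, with 2 of them equal to it at 2 decimals. The change was −0.16 ± 0.05, a level 0.897 times that of NSD mice (adjusted p = 0.0206, limma). This call rested on single libraries: it was lost without SD library T30S3 (change −0.13, adjusted p = 0.123), without NSD library T6N4 (−0.13, 0.0699) and without NSD library J76N2 (−0.14, 0.052). At T27 SD mice had 5.46 ± 0.04 and NSD mice 5.48 ± 0.05 log2 CPM, and at T36 the change was −0.09 ± 0.05 (adjusted p = 0.302). The 10 astrocyte markers, the cell type that holds most adenosine kinase in adult brain, summed to 5910 to 6210 CPM in SD mice and 5850 to 6280 CPM in NSD mice at T30, with 1 called up (Gjb6) and 1 called down (Sox9).

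The other receptor and the CD73 gene were not called in cortex at any of the 12 times. Adora2a had 0.28, 0.54 and 0.78 log2 CPM in SD mice at T30, against 0.36, 0.41, 0.42, 0.51 and 0.64 log2 CPM in NSD mice, so the groups overlapped. Its change of 0.07 had a 95% confidence interval from −0.28 to 0.41. Over the same groups the striatal markers summed to 280 to 318 CPM in SD mice and 236 to 262 CPM in NSD mice. Such a sum is weighted to abundant genes, here Pde10a among them. Of the 10 measured, 2 rose (Pde10a by 0.69, Tac1 by 0.33) and 1, Gpr6, fell by 1.02. A change in the share of striatal cells was not tested. Nt5e had 2.02, 2.07 and 2.28 log2 CPM in SD mice at T30, against 2.16, 2.18, 2.25, 2.29 and 2.44 in NSD mice, a change of −0.14 (95% interval −0.43 to 0.15). At T27 its SD values of 1.66, 2.08 and 2.09 log2 CPM all lay below the NSD values of 2.18, 2.19 and 2.22, with a change of −0.25 ± 0.16 (adjusted p = 0.284). The lowest of them, T27S5, stood apart from the other two, and without it the change was −0.11 (adjusted p = 0.736).

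**Figure D1:**
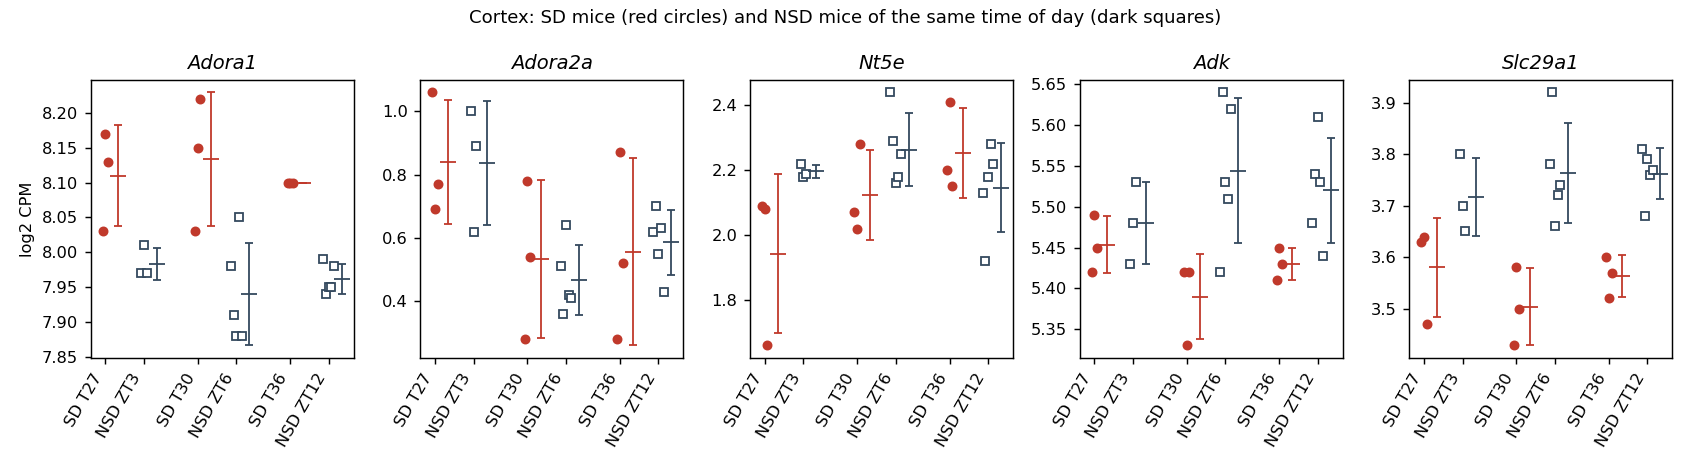
Level of each gene in cortex (log2 CPM, vertical axes differ) in SD mice (red circles) at T27, T30 and T36, each left of the NSD mice (dark squares) of the same time of day; each point is a library, and bars beside them are mean and SD. At all 3 times the SD mean of Adora1 lies above and that of Slc29a1 below the NSD mean, while Adora2a overlaps at each.

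In liver the A1 receptor gene went the other way, and it was the only 1 of the 5 genes called after deprivation. Of the 5 genes, 1 was called at T30 in liver, where 15.8% of all genes were, and none at T27 or T36, where 1.5% and 3.16% were. Adora1 had 3.94, 4.32 and 4.62 log2 CPM in SD mice at T30, against 5.12, 5.14, 5.17, 5.27 and 5.27 log2 CPM in NSD mice of ZT6. All SD libraries lay below all NSD libraries. Means were 4.29 ± 0.34 in SD mice and 5.19 ± 0.07 in NSD mice, and the change was −0.83 ± 0.21, a level 0.563 times that of NSD mice (adjusted p = 0.00537, limma). Without SD library T30S1, the lowest, the change was −0.65 and no longer called (adjusted p = 0.0943). With the unlabelled factor as a covariate it was −0.82 (adjusted p = 0.0106), and with NSD mice of the same label batch alone −0.90 (adjusted p = 0.00785). At T27, Adora1 had 3.76, 4.00 and 4.07 log2 CPM in SD mice, against 4.44, 4.79 and 5.01 in NSD mice of ZT3. Again the groups did not overlap, and the change of −0.80 ± 0.23 missed the threshold (adjusted p = 0.0625). By T36 the groups overlapped, with 3.94, 4.41 and 4.82 log2 CPM in SD mice and 4.28 to 5.16 in NSD mice (change −0.28 ± 0.21).

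Marker lists of several cell types were read beside the Adora1 change at T30. The 10 hepatocyte markers overlapped, with 115000 to 118000 CPM in SD mice and 102000 to 120000 CPM in NSD mice, and none of them was called. The 5 listed cholangiocyte markers summed to 37.6 to 40.9 CPM in SD mice and 48.8 to 62.5 CPM in NSD mice, with none called. The 7 endothelial markers, the list also read in cortex, summed to 88.7 to 152 CPM in SD mice and 169 to 268 CPM in NSD mice. Of these, 1 was called, Slco1a4 (−1.26). Such a sum is weighted to abundant genes, and whether Slco1a4 stands for endothelial cells in liver was not tested. Of 8 neuron markers only Syt1 and Rbfox3 were listed in liver, too few to stand for neurons. These markers summed to 6.18 to 10.4 CPM in SD mice and 14.1 to 23.1 CPM in NSD mice, and Syt1 fell by 1.5 on the log2 scale. The stellate, Kupffer and sinusoidal endothelial lists, 7 genes each, had overlapping sums and no called gene. The part of these cell types in the Adora1 change was not tested.

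The other 4 genes were not called after deprivation in liver. At T30 Adk had 8.90, 9.13 and 9.15 log2 CPM in SD mice and 8.87 to 9.11 in NSD mice, a change of 0.04 (95% interval −0.13 to 0.20). Slc29a1 had 7.54, 7.63 and 7.65 log2 CPM in SD mice and 7.34 to 7.68 in NSD mice (change 0.11, interval −0.15 to 0.38). At T27 its SD values of 7.71, 7.82 and 8.14 all lay above the NSD values of 7.58, 7.59 and 7.63 log2 CPM (change 0.29 ± 0.14, adjusted p = 0.38). Nt5e had 2.07, 2.7 and 2.79 log2 CPM in SD mice and 2.57 to 2.97 in NSD mice at T30 (change −0.05, interval −0.63 to 0.53). Adora2a had −0.03, 0.02 and 0.56 log2 CPM in SD mice and 0.10 to 0.82 in NSD mice (change −0.22, interval −0.77 to 0.34). All 4 intervals include 0.19, the size of the Adora1 change in cortex.

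**Figure D2:**
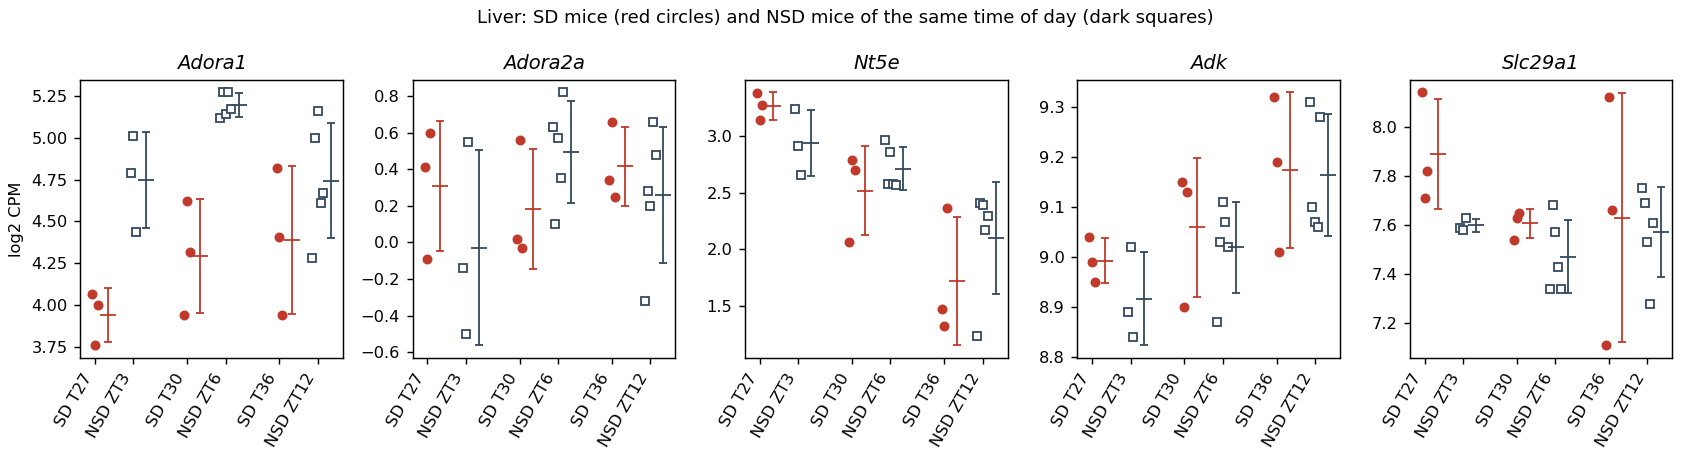
Level of each gene in liver (log2 CPM, vertical axes differ) in SD mice (red circles) at T27, T30 and T36, each left of the NSD mice (dark squares) of the same time of day; each point is a library, and bars beside them are mean and SD. Adora1 lies below all NSD mice at T27 and T30 and overlaps with them at T36.

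The 2 tissues of the same mice were then compared directly, as the difference between the cortex and the liver change over the 12199 genes named in both. For Adora1 this difference was 0.92 ± 0.24 at T27 (adjusted p = 0.0201), where 2.12% of genes were called, and 1.02 ± 0.22 at T30 (adjusted p = 0.000682), where 12.2% were. At T36 it was 0.42 ± 0.22 (adjusted p = 0.282), with 4.55% of genes called. The T27 call was lost when any of 4 mice was left out (T27S3, T27S5, T3N3 or T3N4; adjusted p = 0.0554 to 0.156), while the T30 call held without each of the 8 mice in turn. With each mouse as its own block the differences were the same, with adjusted p = 0.0365 at T27 and 0.00213 at T30. The liver values enter these tests, so their p-values are too small as well. Fits with the unlabelled factor or with controls of the same label batch were not run between tissues. For the other 4 genes no difference between tissues was called, and the nearest was Slc29a1 at T30, with −0.37 ± 0.15 (adjusted p = 0.104). Since the tables were normalised separately, levels were not compared between tissues.

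During recovery from T42 to T198 none of the 45 changes in cortex (5 genes at 9 times) and none of the 45 in liver was called. In cortex 1.03% of all genes were called at T42, 1.49% at T48 and 0% at each later time, and in liver 0.015% at T48 and 0% at the other 8 times. The cortex values ran from −0.28 (Nt5e at T198) to 0.41 (Adora2a at T54), with a lowest adjusted p of 0.356. The liver values ran from −0.73 (Adora2a at T78) to 0.52 (Nt5e at T48), with a lowest adjusted p of 0.505. An F test over all 12 SD times called Adora1 (adjusted p = 0.00968) and Slc29a1 (0.0434) in cortex, where 35.2% of genes were called, and Adora1 (0.0448) in liver, where 10.7% were. The Slc29a1 call and the liver Adora1 call of this F test were each lost when any of many single libraries was left out, 24 and 32 of the 62.

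**Figure D3:**
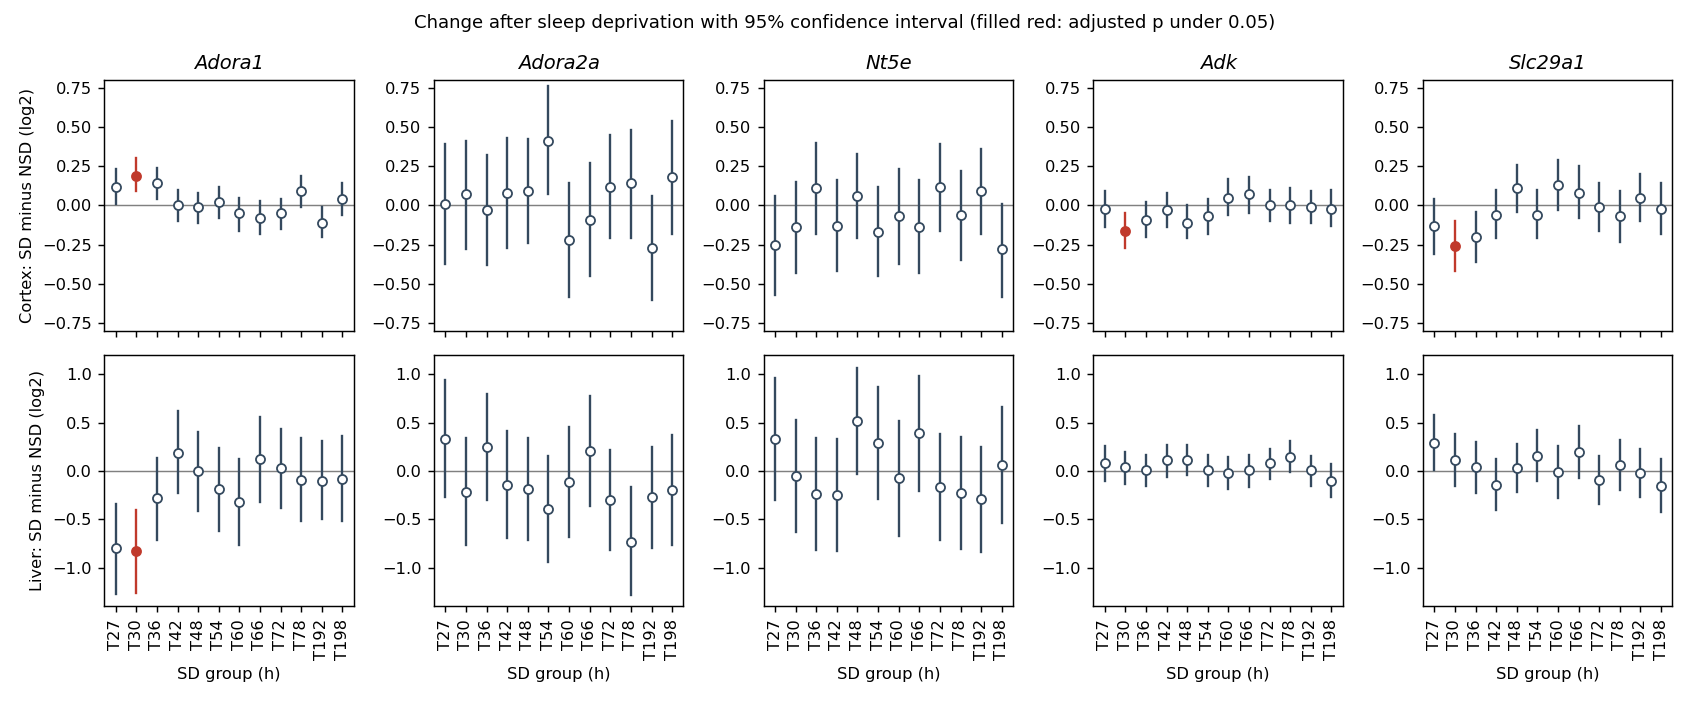
SD minus NSD change (log2, 12 SD times on the horizontal axis) of each gene in cortex (top) and liver (bottom), with the 95% confidence interval; filled red points had an adjusted p under 0.05. Only points at T30 are filled, Adora1, Adk and Slc29a1 in cortex and Adora1 in liver.

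In undisturbed mice the genes were then followed across the day. In cortex only 1 of the 5, Adora1, varied with the time of day (41.9% of all cortex genes did), and its swing was small. It averaged 8.05 ± 0.07 log2 CPM at ZT0 (n = 8), 7.99 ± 0.02 at ZT3 (n = 3), 7.94 ± 0.08 at ZT6, 7.96 ± 0.02 at ZT12 and 8.10 ± 0.07 at ZT18 (n = 5 each). The range from its lowest mean at ZT6 to its highest at ZT18 was 0.16, or 1.12-fold (adjusted p = 0.00631, limma F test). ZT18 was higher than ZT12 by 0.14 ± 0.04 (adjusted p = 0.0114) and than ZT6 by 0.16 ± 0.04 (adjusted p = 0.00276), and ZT6 was lower than ZT0 by 0.11 (change −0.11 ± 0.04, adjusted p = 0.027). With batch 1 controls alone the range was 0.17 and was not called (adjusted p = 0.0953). The change of 0.19 after deprivation at T30 stands beside this daily range of 0.16.

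The other 4 genes were not called for time of day in cortex. Adora2a had its highest mean at ZT3 and lowest at ZT6, a range of 0.37 (adjusted p = 0.107). Its pair of ZT6 against ZT0 was called (−0.36 ± 0.13, adjusted p = 0.0416), and so was its range in a fit of the 5 control groups alone (adjusted p = 0.036). The ranges of Nt5e (0.27), Slc29a1 (0.10) and Adk (0.07) had adjusted p of 0.167, 0.536 and 0.809.

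In liver 4 of the 5 genes varied with the time of day, where 52% of all genes did. Nt5e had the widest swing of the 5, a range of 1.51 or 2.84-fold (adjusted p = 2.96e-06), which ranked 475 of 13338 genes by range. Its 8 ZT0 libraries ran from 2.92 over a median of 3.54 to 3.90 log2 CPM. The values were 2.66, 2.91 and 3.24 at ZT3; 2.57, 2.58, 2.58, 2.86 and 2.97 at ZT6; 1.24, 2.17, 2.30, 2.39 and 2.41 at ZT12; and 2.75, 3.52, 3.65, 3.89 and 4.22 at ZT18. It was thus high in the later night and at light onset and low at ZT12, and the ZT12 and ZT18 libraries did not overlap. ZT18 was above ZT12 by 1.51 ± 0.24 and above ZT6 by 0.89 ± 0.24 (adjusted p = 0.00385). ZT0 and ZT18, the neighbours at the top, were not called as different, nor were ZT12 and ZT6 at the bottom (ZT12 minus ZT6 −0.61 ± 0.24, adjusted p = 0.0524). Without the low ZT12 library T12N1 the range was still called, as in each case of leaving out 1 library (range 1.32 to 1.69).

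Adora1 in liver had its highest mean in the middle of the light phase. Its mean was 4.20 ± 0.39 log2 CPM at ZT0, 4.74 ± 0.29 at ZT3, 5.19 ± 0.07 at ZT6, 4.74 ± 0.35 at ZT12 and 4.17 ± 0.13 at ZT18, a range of 1.02 or 2.03-fold (adjusted p = 2.79e-06). The 5 libraries of ZT6 lay between 5.12 and 5.27 and all 5 of ZT18 between 4.00 and 4.34 log2 CPM. ZT18 was below ZT6 by 1.02 (change −1.02 ± 0.18), below ZT12 by 0.57 (−0.57 ± 0.18, adjusted p = 0.0118) and below ZT3 by 0.64 (−0.64 ± 0.21, adjusted p = 0.0363). ZT6 was not called as different from the next means in the order, with 0.38 ± 0.21 for ZT6 minus ZT3 (adjusted p = 0.447) and −0.45 ± 0.18 for ZT12 minus ZT6 (adjusted p = 0.0537). Nor were ZT3 and ZT12, or ZT18 and ZT0. In SD mice during recovery Adora1 averaged 4.30 at T42, 4.10 at T48, 4.93 at T54, 4.53 at T60, 4.40 at T66, 4.14 at T72 and 5.03 at T78, so its highest means were again those at ZT6. At T192 and T198 it averaged 4.18 ± 0.48 and 5.22 ± 0.28 log2 CPM.

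Slc29a1 and Adk had narrower swings in liver. Slc29a1 averaged 7.76 ± 0.17 log2 CPM at ZT0, 7.60 ± 0.03 at ZT3, 7.47 ± 0.15 at ZT6, 7.57 ± 0.18 at ZT12 and 7.93 ± 0.15 at ZT18, a range of 0.46 or 1.38-fold (adjusted p = 0.0027). ZT18 was above ZT6 by 0.46 ± 0.11 (adjusted p = 0.001) and above ZT12 by 0.36 ± 0.11 (adjusted p = 0.00918). Adk averaged 8.93 ± 0.11, 8.92 ± 0.09, 9.02 ± 0.09, 9.16 ± 0.12 and 8.98 ± 0.11 log2 CPM in the same order of times, a range of 0.25 or 1.19-fold (adjusted p = 0.0129). Its ZT12 mean stood above ZT0 by 0.23 ± 0.06 (adjusted p = 0.00279) and above ZT3 by 0.25 ± 0.08 (adjusted p = 0.0218), but the Adk range was not called with batch 1 controls alone (range 0.24, adjusted p = 0.0946) or without T12N1 or T12N6. Adora2a was not called (range 0.43, adjusted p = 0.61).

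**Figure D4:**
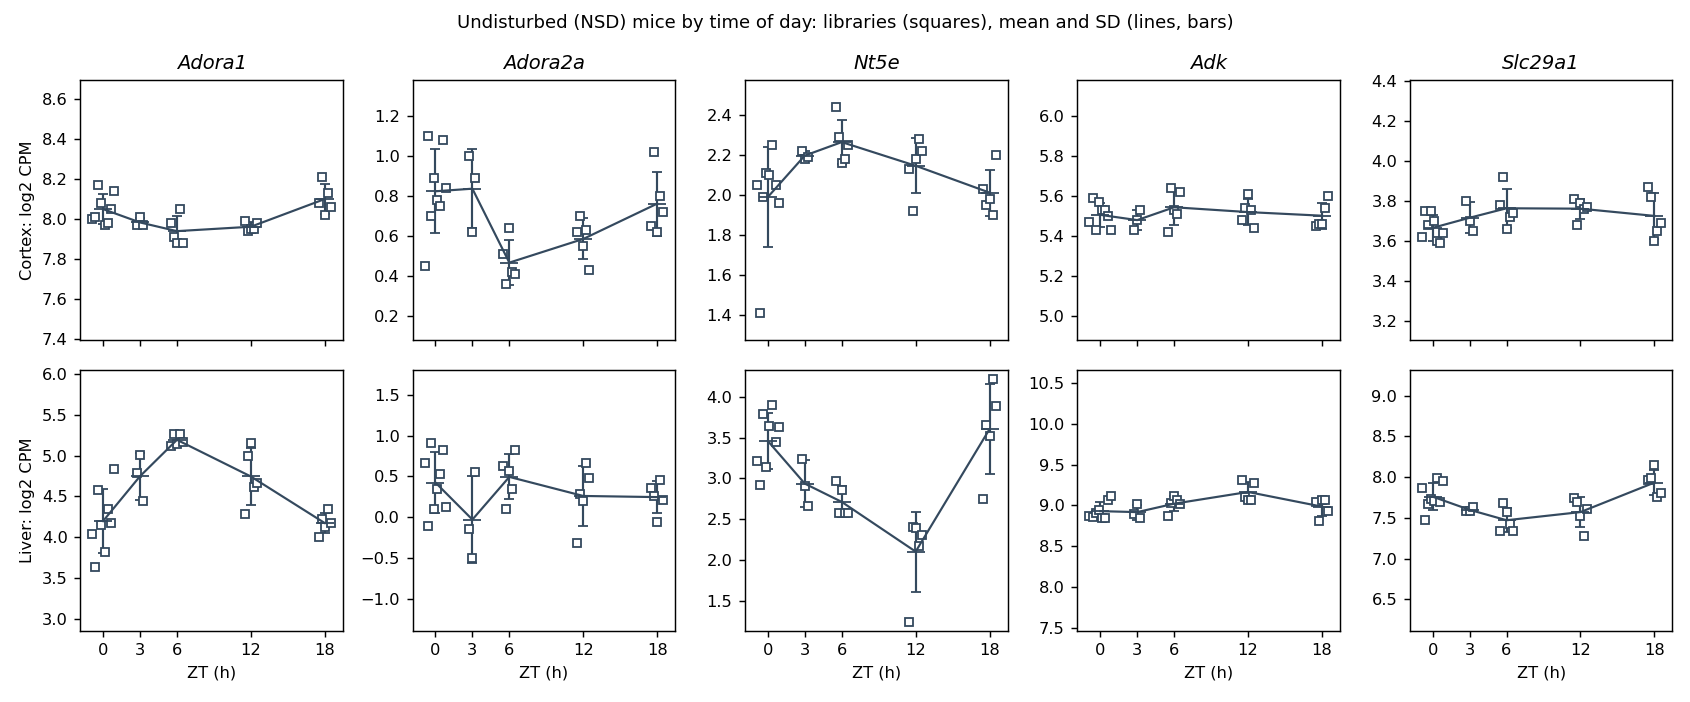
Level of each gene in NSD mice (log2 CPM) by zeitgeber time in cortex (top) and liver (bottom), with axes of 1 span within a tissue and a wider one in liver; squares are libraries, lines join means and bars are SD. In liver Nt5e is lowest at ZT12 and Adora1 highest at ZT6, while the cortex means of Adora1 stay between 7.94 and 8.10.

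The course of each gene over the 17 group means was set beside that of every other gene of its tissue, as Pearson's r without a test. The groups share a normalisation and overlapping times of day, so r describes likeness of course and nothing more. In cortex Adora1 was closest to Smap2 (r = 0.93), Rpn1 (0.91) and Ptpn5 (0.89). Slc29a1 was closest to Ntan1 (0.92), Lta4h and Amy1 (0.91 each), and Adk to Bend6 (0.93), Snrpn (0.91) and Fgf13 (0.90). Adora1 ran against both of these genes, with r = −0.74 to Slc29a1 and −0.63 to Adk, which ran together at 0.69. Adora2a was closest to Scarb1 (0.89), Caskin2 (0.85) and Celf3 (0.84), and Nt5e to Slc22a21 (0.87), Sphkap (0.82) and Fzd7 (0.81). In liver Nt5e was closest to Ttll12 (0.96), Ap2a2 and Pknox1 (0.95 each), and Adora1 to Slc22a4, Gnat1 (0.90 each) and Nlrc5 (0.89). Slc29a1 was closest to Olfr1033 (0.90), Zfyve1 and Rbm12b1 (0.89 each), and Adk to Suclg1 (0.86), Fdx1 (0.83) and Idh3b (0.82). Among the 5 genes in liver, Nt5e and Slc29a1 ran together (r = 0.73) and Adora1 and Slc29a1 against each other (−0.73). Adora2a was closest to Dnal1 (0.74), Lztr1 (0.72) and Vopp1 (0.71), lower values than for the other 4 genes in liver.

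The rest of the adenosine pathway was read from 9 lists with 57 genes: other receptors, ectonucleotidases, cytosolic nucleotidases, deamination and salvage, S-adenosylhomocysteine hydrolysis, other nucleoside transporters, adenylate kinases, ATP release, and receptor G proteins and cyclases. In cortex 51 of the 57 were measured. At T30, 10 of the 51 rose and 7 fell, a share of 33.3% that is near the 32.4% of all genes, with a median change of 0.03 against −0.01 over all genes. The smallest p belonged to Adcy3, an adenylyl cyclase, with 6.05 ± 0.06 log2 CPM in SD mice and 5.72 ± 0.10 in NSD mice (change 0.32 ± 0.05, adjusted p = 7.1e-06). Ampd2, an AMP deaminase, rose by 0.36 ± 0.07, and Nt5c1a, a cytosolic nucleotidase that forms adenosine from AMP, rose by 0.62 ± 0.14, at a low level of 1.76 ± 0.18 log2 CPM in SD mice and 1.14 ± 0.10 in NSD mice. Ak4, a mitochondrial adenylate kinase, rose by 0.33 ± 0.06, Panx1, a channel through which cells release ATP, by 0.28 ± 0.06, and Adal by 0.23 ± 0.05. At T27, 3 genes rose and 2 fell, 9.8% of the 51 against 16.4% of all genes, with Ak4 at 0.55 ± 0.07 (adjusted p = 2.16e-07), Panx1 at 0.31 ± 0.07 and Adcy3 at 0.24 ± 0.06. At T36, 3 rose and 2 fell, 9.8% against 12.5% of all genes. By time of day 24 of the 51 were called (47.1% against 41.9% of all genes), with the widest ranges in Xdh (1.22), which encodes xanthine dehydrogenase, Slc17a9 (0.70), the vesicular nucleotide transporter, and Adora2b (0.51), the A2B receptor gene.

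In liver 41 of the 57 pathway genes were measured. At T30, 4 rose and 6 fell, a share of 24.4% against 15.8% of all genes, with a median change of −0.07 against 0.002 over all genes. Of all liver genes 7.95% were called lower at T30 and 7.84% higher. Only 1 of the 9 lists is counted apart here, a choice outside the naming rules given below, and counts of the others are not given. On that list, headed ectonucleotidases, 4 of 8 genes fell and none rose. Among them were Enpp1 (−0.60 ± 0.10, adjusted p = 7.61e-05), Acpp, which encodes prostatic acid phosphatase (−1.46 ± 0.27, adjusted p = 0.000207), and Entpd5 (−0.45 ± 0.12). Whether these falls bear on adenosine formed outside cells was not tested. The ectonucleotidase gene Nt5e, counted among the 5 genes and not here, was not called in liver at T30 (change −0.05 ± 0.29, adjusted p = 0.932, limma). Nt5c2, a cytosolic nucleotidase that prefers IMP and GMP, fell by 0.68 on the log2 scale, with 3.50 ± 0.06 log2 CPM in SD mice and 4.14 ± 0.12 in NSD mice (change −0.68 ± 0.09, adjusted p = 9.89e-07). Ak4 was lower (−0.54 ± 0.14), and Ahcyl2, a relative of S-adenosylhomocysteine hydrolase, was higher (0.98 ± 0.21). Ak4 thus rose in cortex and fell in liver at T30, a difference that was not tested here. At T27 only Adal was called (0.41 ± 0.10, adjusted p = 0.026), 2.44% of the 41 against 1.5% of all genes, and at T36, 1 gene rose and 1 fell, 4.88% against 3.16%. By time of day 27 of the 41 were called (65.9% against 52% of all genes), with the widest ranges in Alpl, the tissue-nonspecific alkaline phosphatase (1.26), Slc17a9 (1.26) and Gnal (1.24), and the last of these lies near 0 log2 CPM.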

How the data were processed

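The deposited tables, 1 per tissue, hold log2 CPM. Per the submitters' processing notes the authors used fastp, STAR 2.7.0e and edgeR on GRCm38 (mm10), with no role given for each. Per the labels' protocols liver RNA went into stranded poly(A) libraries read single-end, and the sources used here do not state how the cortex libraries were made. The deposited values carry no variation along the label batch in cortex, nor along an unlabelled factor of 3 levels in liver. Unnamed entries stayed out of all tests: 77 of the cortex table, holding 0.0618% of its CPM, and 35 of the liver table, holding 0.0337%.

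Each tissue was fitted with limma 3.58.1 in R 4.3.3 (17 groups and label batch, mean trend, no filter or pseudocount), two-sided, with Benjamini-Hochberg adjustment over all named genes and a threshold of 0.05. The fit was tested on simulated data, with changes put into the T30 group. It called 81% of changes of 0.5 log2 in cortex and 40% in liver, and 95% and 82% of changes of 1 log2. Only 200 genes were changed, drawn without the noisiest ones, and all other groups shared 1 mean per gene. In the data 5550 genes were called at T30 in cortex and 2107 in liver, so these rates need not hold there. Smaller changes, such as those of the 5 genes called in cortex, were not simulated. Differences between tissues came from 1 fit of both tables. Replicates are separate mice. No 2 libraries of the same group and tissue held identical values (97 pairs per tissue), and pairs across groups were not compared. The same mouse gave both tissues per the labels, so the mouse was also used as a block; the median correlation of its deviations in both tissues was 0.03 over 62 mice. Named beside the 5 genes are, of the other pathway genes in each tissue, the 6 with the smallest p at T30 and 3 at T27 among those called, the 3 widest called ranges by time of day, and for each of the 5 genes the 3 with the highest r. The genes, lists and rules were chosen with earlier results of these data known. The alternatives are given in the closing section.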

Additional observations from a re-analysis of the deposited data

Results flagged for a closer look

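In 40 groups of 4 to 10 libraries (5 genes, 4 control times, 2 tissues) the highest and lowest library were tested against the others by Dixon's criterion, which by chance marks about 1 group in 20, and 2 were marked. Nt5e in cortex had its lowest ZT0 library, J70N2, at 1.41 log2 CPM, against a next lowest of 1.96 (n = 8). Nt5e in liver had its lowest ZT12 library, T12N1, at 1.24 log2 CPM, against a next lowest of 2.17 (n = 5). The change of Adora1 differed between cortex and liver, by 0.92 at T27 (adjusted p = 0.0201) and by 1.02 at T30 (adjusted p = 0.000682, limma interaction term), with SD mice above NSD mice in cortex and below NSD mice in liver.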

How the results depend on the processing

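The Adora1 changes at T30 were called under every alternative run in cortex and between tissues, and in liver under all but leaving out SD library T30S1. Between tissues only median centring, the mouse block and leaving out 1 mouse at a time were run. Without a mean trend the F test over 12 times missed the threshold for cortex Slc29a1 (largest change −0.26, adjusted p = 0.0505) and liver Adora1 (−0.83, 0.0601), as did liver Adora1 with the unlabelled factor (−0.82, 0.0796). Fits of only the groups compared lost the T30 calls of cortex Adk (−0.17, 0.0669) and Slc29a1 (−0.20, 0.0608), called Adora1 at T36 (0.14, 0.0349) and the Adora2a daily range (0.37, 0.036) in cortex, and turned uncalled liver Slc29a1 at T36 to −0.03. Controls of the same batch gave −0.20 for cortex Slc29a1 at T30 (0.0712) and −0.03 for liver Slc29a1 at T36. Adora1 at T36 in cortex was also called at 0.14 without the lowest 20% of genes (0.0494) or, with a p-value that is too small, without a batch term (0.0419). The remaining alternatives did not call it. Batch 1 controls alone lost the daily ranges of cortex Adora1 (0.17, 0.0953) and liver Adk (0.24, 0.0946). Median centring moved uncalled cortex Adora2a at T27 to 0.00.

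Leaving out 1 library at a time gave, in cortex, −0.29 to −0.22 for Slc29a1 over 12 times and again −0.29 to −0.22 at T30, −0.18 to −0.13 for Adk at T30 and −0.05 to 0.00 at T27, and −0.10 to 0.09, −0.06 to 0.19 and −0.18 to 0.11 for Adora2a at T27, T30 and T36. In liver it gave −0.99 to −0.80 for Adora1 over 12 times and −0.99 to −0.65 at T30, −0.01 to 0.12 and −0.06 to 0.09 for Adk at T30 and T36 and 0.21 to 0.30 for its daily range, −0.19 to 0.17 for Nt5e at T30, and −0.21 to 0.29 for Slc29a1 at T36. Between tissues it gave 0.79 to 1.07 for Adora1 at T27, −0.28 to 0.10 for Nt5e at T30 and −0.47 to 0.00 for Slc29a1 at T36. The mouse as a replicate block left the Adora1 differences at 0.92 and 1.02 and changed no call of the 5 genes. The cause of these shifts was not tested.

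Genes called moved by over 1.5 times with batch 1 controls by time of day (4672 against 7162 in cortex, 4346 against 6937 in liver), and in liver in fits of only the groups compared (55 against 200 at T27, 903 against 2107 at T30, 0 against 422 at T36) and with the unlabelled factor at T36 (226 against 422). Library depth is unknown, so counting error at the low levels of Adora2a and Nt5e could not be given.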
